A study of Mus musculus with 8 samples.

Results

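The genes Pparg and Cidec, both known for their part in fatty liver, were examined for binding of the transcription factor C/EBPα in mouse liver, mapped by chromatin immunoprecipitation and sequencing (ChIP-seq). All peaks of the 8 deposited lists were taken whose midpoint lay in chr6:115250000-115500000 (Pparg) or chr6:113330000-113420000 (Cidec) of the mouse build mm9. Peaks of different lists that overlapped were joined into sites. The windows held 57 of the 113353 sites in the genome, 46 around Pparg and 11 around Cidec. The windows were set by position, and the genes were chosen with earlier results of these data known. The gene bodies were placed at about 115311000 to 115440500 and about 113374000 to 113386000, and distances are counted in kb from these approximate gene starts along the direction of transcription. No mm9 gene models were used, so sites were not assigned to exons or introns. A window can also hold sites that belong to neighbouring genes, which are not reported here.

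PPARγ, the product of Pparg, is a nuclear receptor that drives adipocyte differentiation together with C/EBPα. Its level is low in healthy hepatocytes and increases in steatosis, and its protein forms arise from alternative promoters, one of them inside the gene. CIDEC is a lipid droplet protein that promotes growth of the droplets, and its gene is a known target of PPARγ in fatty liver. C/EBPα is a basic leucine zipper factor of hepatocytes and adipocytes that binds DNA as a dimer.

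The study had 4 groups of 2 libraries, from liver of mice fasted for 4 hours, immunoprecipitated with 1 antibody to C/EBPα, of strain C57B/6 by the labels and 8 to 10 weeks old. Trib1 flox/flox mice had been injected with a vector of adeno-associated virus (AAV) at 1.5e11 gc, AAV_Null, which is empty (group Trib1_WT), or AAV_Cre, which codes for Cre recombinase (group Trib1_LSKO). Trib1 encodes a pseudokinase that promotes degradation of C/EBPα. Wild-type mice had received 1e12 gc of AAV_Null (group AAV_Null) or of AAV_Cebpa, a vector coding for C/EBPα (group AAV_Cebpa). All mice thus carried a vector, the floxed allele was shared by both groups of the first experiment, and the sources used here do not give the promoters in the vectors. The labels do not say whether replicates are separate animals, so the spread between them may be technical. Peak lists hold no RNA or protein, so neither expression of Pparg and Cidec nor the loss of Trib1 was measured, and the tissue could not be checked against markers.

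The lists held 46348 to 80394 peaks, the longest being those of AAV_Cebpa (59564 and 80394). Relative sequencing depth was estimated from the step between signal values, which takes the signal as a read count scaled by library size. How the signal was scaled is not given in the sources used here. The estimate ran from 1.00 in AAV_Null replicate 1 to 2.27 in AAV_Cebpa replicate 2. It was 1.85 in AAV_Cebpa replicate 1 and 1.14 to 1.93 in the libraries of the first experiment and AAV_Null replicate 2. Deeper libraries can list more weak peaks, so depth and group cannot be told apart in the second experiment. Each peak has 1 signal value of the authors, which was used only within that list, converted to a percentile from the weakest peak to the strongest (100). With 2 against 2 libraries the exact two-sided permutation test cannot go below 0.33, and no single site was tested.

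Start sites of both genes are shown here because binding near them is what the peak positions bear on. The 250 bases before a start are given 5′ to 3′ on the strand of the gene, from RefSeq (build GRCm38.p6), in which Pparg has 3 starts and Cidec 2. Capitals mark the loose C/EBP-like word TTNCNNAA or its reverse complement TTNNGNAA. The first and the third start of Pparg (plus strand, chr6:115360894-115361143 and chr6:115421816-115422065) and the first and second of Cidec (minus strand, chr6:113435761-113436010 and chr6:113434765-113435014) read as follows.
Pparg start 1: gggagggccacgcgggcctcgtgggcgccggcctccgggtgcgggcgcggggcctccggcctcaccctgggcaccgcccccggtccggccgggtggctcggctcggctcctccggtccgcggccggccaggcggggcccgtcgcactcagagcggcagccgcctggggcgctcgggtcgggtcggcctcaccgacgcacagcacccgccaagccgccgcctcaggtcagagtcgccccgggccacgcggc
Pparg start 3: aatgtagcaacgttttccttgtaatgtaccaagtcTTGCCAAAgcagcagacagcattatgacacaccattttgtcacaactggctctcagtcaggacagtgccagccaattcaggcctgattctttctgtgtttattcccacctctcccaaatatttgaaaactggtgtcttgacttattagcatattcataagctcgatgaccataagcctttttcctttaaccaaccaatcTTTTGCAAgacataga
Cidec start 1: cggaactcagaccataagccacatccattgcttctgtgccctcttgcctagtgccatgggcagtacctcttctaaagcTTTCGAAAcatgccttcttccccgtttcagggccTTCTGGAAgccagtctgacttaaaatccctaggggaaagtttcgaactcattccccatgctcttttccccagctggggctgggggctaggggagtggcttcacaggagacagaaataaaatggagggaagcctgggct
Cidec start 2: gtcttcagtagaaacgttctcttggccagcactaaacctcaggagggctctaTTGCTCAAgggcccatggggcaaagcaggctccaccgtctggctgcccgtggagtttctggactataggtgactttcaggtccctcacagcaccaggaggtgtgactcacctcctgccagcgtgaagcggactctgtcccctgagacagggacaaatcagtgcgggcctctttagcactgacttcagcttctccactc

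The third start of Pparg, the one deep inside the gene, held the word in 2 places, 215 and 16 bases before the start, whereas the first start, with a G and C content of 82.4%, held none and the second none. Both matches at the third start also fit the stricter word TTGCNNAA or its reverse complement TTNNGCAA, which is a subset of the loose one. Cidec start 1 held 2 loose matches and no strict one, and Cidec start 2 held 1 match that was strict. Of all 32851 promoters in the table, 36.8% held the loose word, 9.56% the strict one and 0.164% the full palindrome TTGCGCAA, which no Pparg or Cidec start held. A list of 20 lipid droplet and steatosis genes had 15 genes in the table with 18 starts. Of these starts 5 held the loose word (27.8%; Cd36, Pnpla3, Vldlr, Mttp and Acsl1) and 1, of the lipoprotein receptor gene Vldlr, the strict one (5.56%). A match is only a description of the letters, and these windows were not placed on mm9.

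The Pparg window was rich in C/EBPα sites. Its 46 sites compare with a median of 7 over 10292 tiles of 250 kb in the genome, and 0.709% of tiles held as many. Within it, 13 sites (28.3%) were called in all 8 lists, against 21.5% of all sites, and 11 (23.9%) in 1 list alone, against 27.1%. Of the 46 sites, 26 lay in the approximate gene body, 9 of them called in all 8 lists. The Cidec window of 90 kb held 11 sites against a median of 2 over 28560 tiles, and 11.1% of tiles held as many. Of these, 5 (45.5%) were called in all 8 lists and 3 lay in the gene body. At the edges, the Pparg window began 13.4 kb outside its first site, which had a mean percentile of 71.3. The nearest site beyond that edge was 53.0 kb away with 3.6, in 2 lists. On the other side the last site inside had 40.2 and the first outside 1.4, each in 1 list. Around Cidec, the first and last sites inside had 20.2 and 49.0, each in 2 lists. The nearest sites outside had 55.4 (2 lists) and 51.3 (6 lists).

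**Figure D1:**
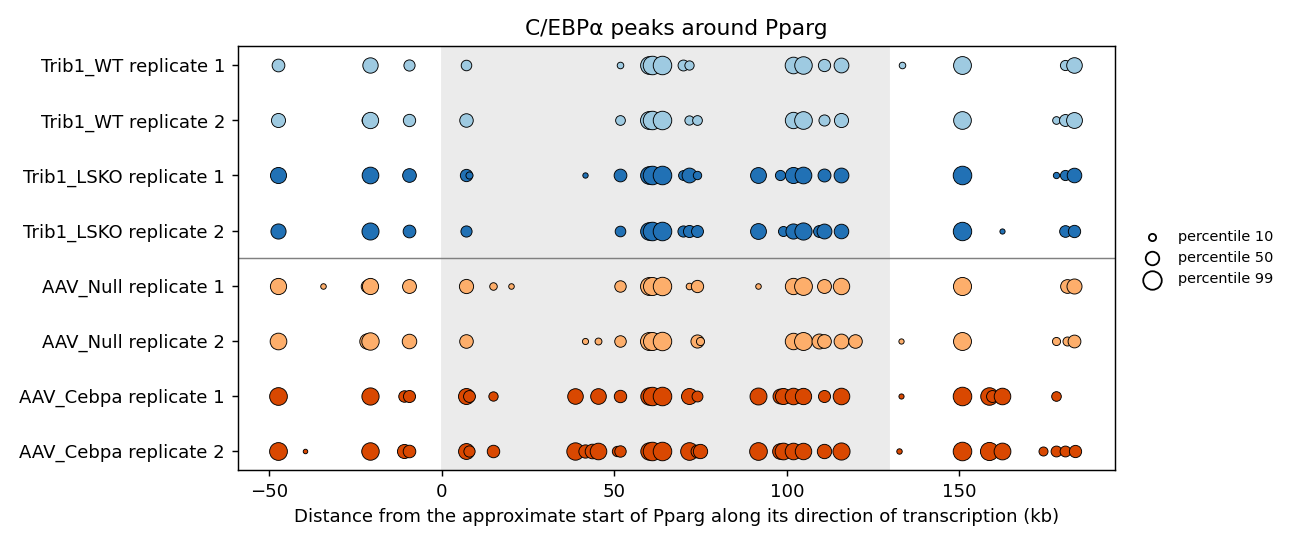
C/EBPα peaks in the Pparg window by list (rows) and distance in kb from the approximate gene start (horizontal axis, grey: approximate gene body), with point size giving the percentile within the list. A dense group of strong points at 60.2 to 63.7 kb and a strong point at 150.7 kb stand in all 8 rows, and the AAV_Cebpa rows hold added points near 38.5, 98.0 and 158.5 kb.

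The strongest Pparg site lay at 63.7 kb (chr6:115374578-115374801). Its percentile was 99.1 and 99.1 in Trib1_WT against 99.9 and 99.9 in Trib1_LSKO, and 98.4 and 98.7 in AAV_Null against 99.9 and 99.7 in AAV_Cebpa. In the Trib1_LSKO lists it ranked 57 of 50075 and 37 of 53072 peaks. It was thus among the strongest peaks of every list, and no other site of the window had a higher mean percentile (99.3).

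A pair of sites 659 bp apart lay just before it, at 60.2 kb (chr6:115371081-115371296) and 60.8 kb (chr6:115371738-115371958). In the RefSeq table the third Pparg start lies 60.9 kb from the first, in the build GRCm38.p6. Coordinates were not converted between builds, so whether either site overlaps that start was not determined. At 60.8 kb the percentile was 99.3 and 98.9 in Trib1_WT against 99.7 and 99.7 in Trib1_LSKO, and 93.6 and 93.4 in AAV_Null against 98.8 and 99.6 in AAV_Cebpa. At 60.2 kb it was 90.8 and 92.6, 90.6 and 90.2, 92.7 and 93.6, and 86.9 and 87.0 in the same order of groups. Only the AAV_Null lists placed both sites of the pair at about the same strength. Around the first start, the nearest sites were at 9.5 kb upstream and 7.1 kb downstream, with mean percentiles of 45.2 and 50.1, far below those of the sites at 60.2 to 63.7 kb.

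The third leading site of the window lay beyond the gene, at 150.7 kb (chr6:115461551-115461842), 21.2 kb past the approximate gene end. Its percentile was 91.5 and 90.1 in Trib1_WT against 99.8 and 98.3 in Trib1_LSKO, and 94.3 and 92.6 in AAV_Null against 99.9 and 100 in AAV_Cebpa. In AAV_Cebpa replicate 2 it was the 5th strongest of 80394 peaks, and in replicate 1 the 34th of 59564. In both AAV_Cebpa lists this site, and not the one at 63.7 kb, was the strongest of the window.

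To compare strength between lists of unequal length, each site called in all 8 lists was ranked among the 24318 such sites, which are the same in every list, and the rank was expressed as a percentile. This rank measures strength relative to other constitutive sites and not the amount bound. A site was counted as higher or lower when both libraries of a group lay beyond both of the other.

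In Trib1_LSKO, 8 of the 13 constitutive Pparg sites ranked higher than in Trib1_WT without overlap (61.5%) and 1 ranked lower (7.69%). Among all constitutive sites 22.2% ranked higher and 31.1% lower. The sites of a window are neighbours and not independent, and their shares were not tested. The site at 150.7 kb ranked 82.0 and 78.6 in Trib1_WT and 99.6 and 96.4 in Trib1_LSKO. The site 47.6 kb upstream (chr6:115263229-115263481) ranked 15.2 and 25 in Trib1_WT and 51.6 and 36.7 in Trib1_LSKO, the widest gap of the 13 by group means (20.1 ± 7.0 against 44.2 ± 10.5, SD, n = 2 each). The site 20.7 kb upstream (chr6:115290126-115290411) ranked 38.8 and 51.5 in Trib1_WT and 61.8 and 66.0 in Trib1_LSKO. These 3 sites lay outside the gene body, and in each the groups did not overlap. The AAV_Null controls of the second experiment had group means of 58.2 at 47.6 kb upstream and 64.4 at 20.7 kb upstream. Both lay above the Trib1_LSKO means there (44.2 and 63.9). At 150.7 kb the AAV_Null mean of 87.4 lay below that of Trib1_LSKO (98.0).

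Gaps of the remaining higher sites were small or lay at the weak end of the ranking. The site at 60.8 kb went from 98.4 and 97.6 to 99.3 and 99.4, and the site at 63.7 kb from 98.0 and 97.9 to 99.8 and 99.9. The site at 51.6 kb (chr6:115362502-115362759) ranked 0.50 and 3.57 in Trib1_WT and 17.8 and 6.29 in Trib1_LSKO. The sites 9.5 kb upstream and at 110.8 kb (chr6:115301377-115301600 and chr6:115421711-115421946) had group means of 10.6 ± 3.6 and 10.1 ± 3.7 in Trib1_WT and 20.3 ± 6.6 and 26.4 ± 10.2 in Trib1_LSKO (SD, n = 2 each). AAV_Null means were above those of Trib1_LSKO at 9.5 kb upstream, 51.6 kb and 110.8 kb (30.9, 13.2 and 27.5). They were below at 60.8 and 63.7 kb (87.4 and 97.2). The site that ranked lower was at 104.7 kb (chr6:115415544-115415777), with 74.9 and 77.7 in Trib1_WT and 61.8 and 68.7 in Trib1_LSKO. The other 4 overlapped between the groups, at 7.1, 60.2, 101.9 and 115.7 kb (chr6:115317951-115318165, the first of the pair above, chr6:115412833-115413054 and chr6:115426549-115426799). With 1 library left out, 8 or 9 sites ranked higher, a count that could not fall because the rule then asks for fewer libraries. Lower sites then numbered 3 and 1 when Trib1_LSKO replicate 1 or 2 was left out and 3 and 2 when Trib1_WT replicate 1 or 2 was.

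**Figure D2:**
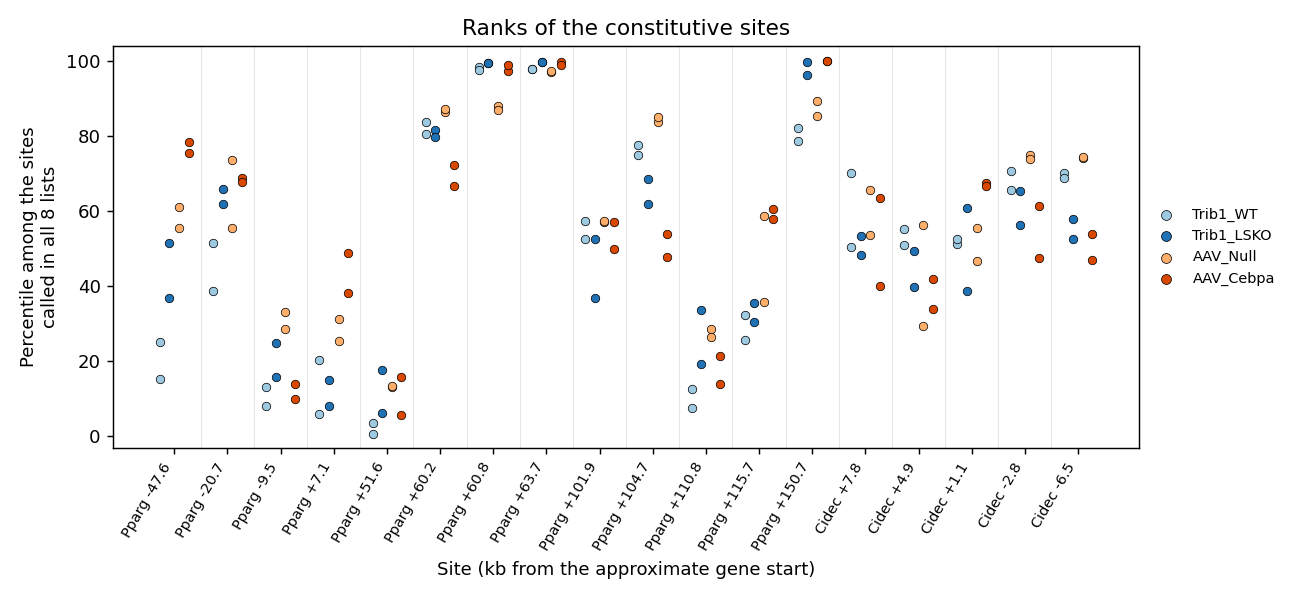
Percentile of each constitutive site among the 24318 sites called in all 8 lists (vertical axis), for 13 Pparg and 5 Cidec sites named by distance in kb from the approximate gene start (minus: upstream). Each point is 1 library, coloured by group; at Pparg 150.7 kb both treated groups sit above their controls, at Pparg 104.7 kb and Cidec 6.5 kb upstream both sit below.

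The Trib1_LSKO lists held more peaks around Pparg. There were 18 and 19 peaks in Trib1_WT and 24 and 23 in Trib1_LSKO, so that the groups did not overlap (23.5 ± 0.7 against 18.5 ± 0.7, SD, n = 2 each; p = 0.33 by the exact permutation test, the lowest value possible). The whole lists moved the other way, with a ratio of mean peak number of 0.95 between Trib1_LSKO and Trib1_WT. Per 10000 peaks of a list, the window held 4.56 ± 0.32 in Trib1_LSKO and 3.42 ± 0.07 in Trib1_WT (n = 2 each, exact permutation p = 0.33). The AAV_Null controls of the second experiment, with another genotype and vector dose, held 22 and 24 peaks, or 4.82 ± 0.10 per 10000. Trib1_WT was thus the lowest of the groups, and Trib1_LSKO lay near the AAV_Null controls. The difference was 5.0 peaks with lists of equal length too, and 2.5 among the strongest 50% of each list.

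Only 1 of the 46 sites met the rule for a gain in Trib1_LSKO, a peak in both treated and in neither control library (2.17%, against 3.15% of all sites), and none was lost (3.23% of all sites). The gained site lay inside the gene at 91.8 kb (chr6:115402653-115402918), with percentiles of 70.9 and 70.7 in Trib1_LSKO. It had 82.0 and 89.8 in AAV_Cebpa and 3.5 in AAV_Null replicate 1, and no peak in Trib1_WT or AAV_Null replicate 2. All 4 treated lists thus held the site, at or above 70.7, and the only control list that held it had it at the weak end. Gained sites numbered 4 without either Trib1_LSKO library and 2 and 3 when Trib1_WT replicate 1 or 2 was left out, and 1 site was lost without Trib1_WT replicate 2, since the rule then asks for fewer lists.

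The site at 70.0 kb (chr6:115380898-115381125) was called in both Trib1_LSKO lists (23.5 and 32.3) and in Trib1_WT replicate 1 (30.3), and in no list of the second experiment. The site at 71.7 kb (chr6:115382589-115382840) was called in 7 lists, at 20.5 and 20.3 in Trib1_WT against 61.4 and 39.1 in Trib1_LSKO, and at 7.5 in replicate 1 of AAV_Null against 72.4 and 89.5 in AAV_Cebpa. Its percentile was lower in each control list that held it than in the treated lists, though percentiles of lists of unequal length do not show a change.

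**Figure D3:**
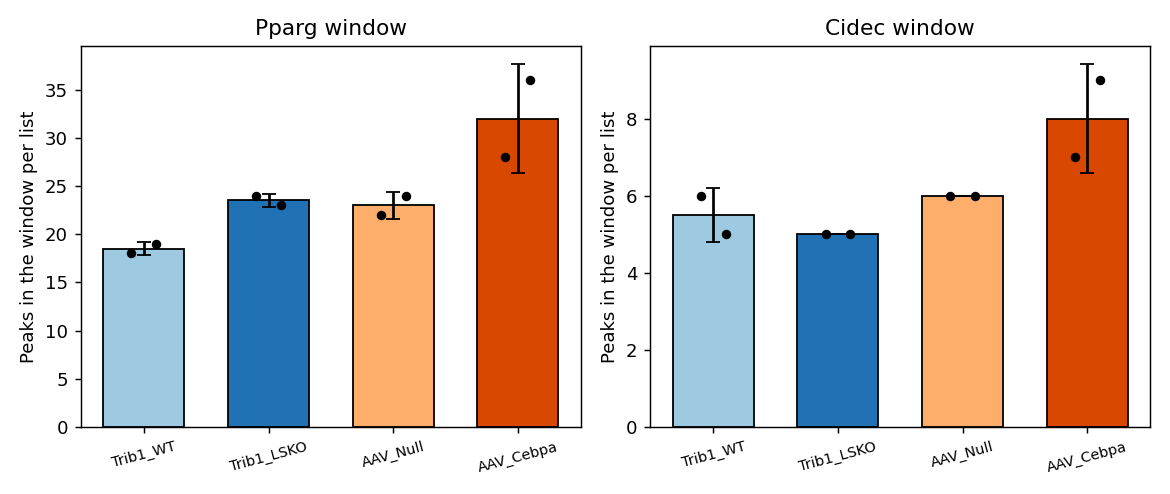
Number of peaks in the Pparg (left) and Cidec (right) windows per list. Bars are group means, error bars the SD of 2 libraries and points the libraries. Around Pparg the Trib1_LSKO lists (23 and 24) lie above the Trib1_WT lists (18 and 19), as do the AAV_Null control lists (22 and 24).

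AAV_Cebpa lists held 28 and 36 peaks around Pparg and AAV_Null lists 22 and 24. The group means were 32.0 ± 5.7 and 23.0 ± 1.4 (SD, n = 2 each; p = 0.33 by the exact permutation test). The ratio of 1.39 was no higher than that of the whole lists, 1.47, and per 10000 peaks the window held 4.59 ± 0.16 in AAV_Cebpa and 4.82 ± 0.10 in AAV_Null. The difference of 9.0 peaks was 3.0 with lists of equal length, 5.0 without AAV_Cebpa replicate 2 and 13 without AAV_Cebpa replicate 1.

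Around Pparg 7 sites were gained in AAV_Cebpa (15.2%, against 19.5% of all sites) and 2 were lost (4.35%, against 5.33%). The share gained was thus not above that of the genome. The strongest gained site was beyond the gene at 158.5 kb (chr6:115469443-115469647), with percentiles of 88.3 and 94.8 in AAV_Cebpa and no peak in any other list. Another, inside the gene at 38.5 kb (chr6:115349423-115349624), had 68.5 and 86.5 and was likewise in no other list. The third such site, 11 kb upstream of the gene (chr6:115299872-115300072), had 34.6 and 55.0. These 3 of 46 sites (6.52%) were called in both AAV_Cebpa lists alone, as were 11.2% of all sites.

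The other 4 gained sites were each called in 1 Trib1_LSKO list as well, and in no Trib1_WT list. They lay at 7.8 kb (chr6:115318715-115318940; 37.4 and 32.9 in AAV_Cebpa, 9.5 in Trib1_LSKO replicate 1) and at 98.0 kb (chr6:115408869-115409084; 62.4 and 69.7, with 25.9 in Trib1_LSKO replicate 1). The next lay at 98.8 kb (chr6:115409660-115409918; 72.9 and 79.5, with 24.9 in Trib1_LSKO replicate 2), and the last at 162.3 kb (chr6:115473221-115473441; 78.4 and 80.4, with 2.3 in Trib1_LSKO replicate 2). Each Trib1_LSKO list thus held 2 of the 7 gained sites (28.6%) and each Trib1_WT list none. Over the genome, sites gained in AAV_Cebpa were called in 31.4% and 29.4% of cases in Trib1_LSKO and in 19.9% and 17.8% in Trib1_WT. No Pparg site was gained in both experiments (1.62% of all sites) or lost in both (0.534%). The 7 gained sites had a median percentile of 76.2 in AAV_Cebpa, against 42.0 for all gained sites. Gained sites numbered 14 without AAV_Cebpa replicate 1, the shallower library of the group by the estimated depth, and 8 without replicate 2.

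Both lost sites lay far beyond the gene, at 181.1 and 183.3 kb, and both had an AAV_Cebpa peak close by. The first (chr6:115491954-115492185) was called in the AAV_Null lists alone, at 51.9 and 18.9. A neighbouring site 329 bp away (chr6:115491629-115491853) was called in both lists of each Trib1 group and in AAV_Cebpa replicate 2, and no list held both. The second (chr6:115494166-115494392) was called in all lists except those of AAV_Cebpa, at 68.6 and 71.0 in Trib1_WT, 59.2 and 40.7 in Trib1_LSKO, and 63.3 and 44.2 in AAV_Null. AAV_Cebpa replicate 2 had a peak 392 bp away, at a percentile of 40.2. With absence required over 500 bp no Pparg site was lost, while all 7 gained sites met that rule, and 4 sites were lost without either AAV_Null library.

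Among the constitutive Pparg sites, 5 of 13 ranked higher in AAV_Cebpa than in AAV_Null (38.5%, against 30.9% of constitutive sites in the genome) and 4 ranked lower (30.8%, against 41.1%). The site at 150.7 kb ranked 89.4 and 85.4 in AAV_Null and 99.9 and 100 in AAV_Cebpa. The site at 60.8 kb ranked 88.0 and 86.8 in AAV_Null and 97.2 and 98.9 in AAV_Cebpa. The site 47.6 kb upstream ranked 55.4 and 61.0, then 78.4 and 75.4. These gaps were wider than the spread within either group. The sites at 7.1 and 63.7 kb were also higher, with group means of 28.3 ± 4.2 against 43.6 ± 7.5 and 97.2 ± 0.3 against 99.4 ± 0.5 (AAV_Null against AAV_Cebpa).

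The widest gap downward was at 104.7 kb, with 83.6 and 85.1 in AAV_Null and 53.9 and 47.8 in AAV_Cebpa. The site at 60.2 kb ranked 86.4 and 87.3 in AAV_Null and 72.3 and 66.8 in AAV_Cebpa. The sites 9.5 kb upstream and at 110.8 kb were lower as well, with group means of 30.9 ± 3.2 and 27.5 ± 1.5 in AAV_Null and 12 ± 2.9 and 17.7 ± 5.2 in AAV_Cebpa (SD, n = 2 each). Strong sites were thus found among those that ranked higher and among those that ranked lower.

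The experiments have separate control libraries, and 4 of the 13 Pparg sites ranked higher in both (30.8%, against 14.5% of constitutive sites in the genome), at 47.6 kb upstream and at 60.8, 63.7 and 150.7 kb. One, at 104.7 kb, ranked lower in both (7.69%, against 18.3%), and 2 ranked opposite ways (15.4%, against 6.91%). The contrast between sites of the same gene can be read within a list, where the scaling of the list drops out. The ratio of the signal at 150.7 kb to that at 104.7 kb was 1.18 and 1.02 in Trib1_WT and 3.18 and 1.98 in Trib1_LSKO. It was 1.20 and 1.01 in AAV_Null and 3.42 and 3.01 in AAV_Cebpa. Every treated library gave one above every control library (2.58 ± 0.85 against 1.10 ± 0.11, and 3.21 ± 0.29 against 1.10 ± 0.13; SD, n = 2 each; exact permutation p = 0.33 for both). This pair of sites was chosen after its values were seen. The site at 150.7 kb had ranked higher and the site at 104.7 kb lower in both experiments. That the ratio separated the groups is therefore no independent support.

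Within the pair of neighbours near 60 kb, the site at 60.8 kb had 1.90 and 1.48 times the signal of the site at 60.2 kb in Trib1_WT and 2.04 and 2.01 times in Trib1_LSKO. The ratio was 1.05 and 0.99 in AAV_Null and 1.83 and 1.88 in AAV_Cebpa. The AAV_Null libraries stood apart from all other groups here, the Trib1_WT controls included, which differ from them in genotype and vector dose. Group means were 2.03 ± 0.02 against 1.69 ± 0.30 in the first and 1.85 ± 0.04 against 1.02 ± 0.04 in the second (SD, n = 2 each; exact permutation p = 0.33 for both). Whether the effects differ was not tested. This ratio too was added after the data were seen, and its sites ranked opposite ways in AAV_Cebpa.

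**Figure D4:**
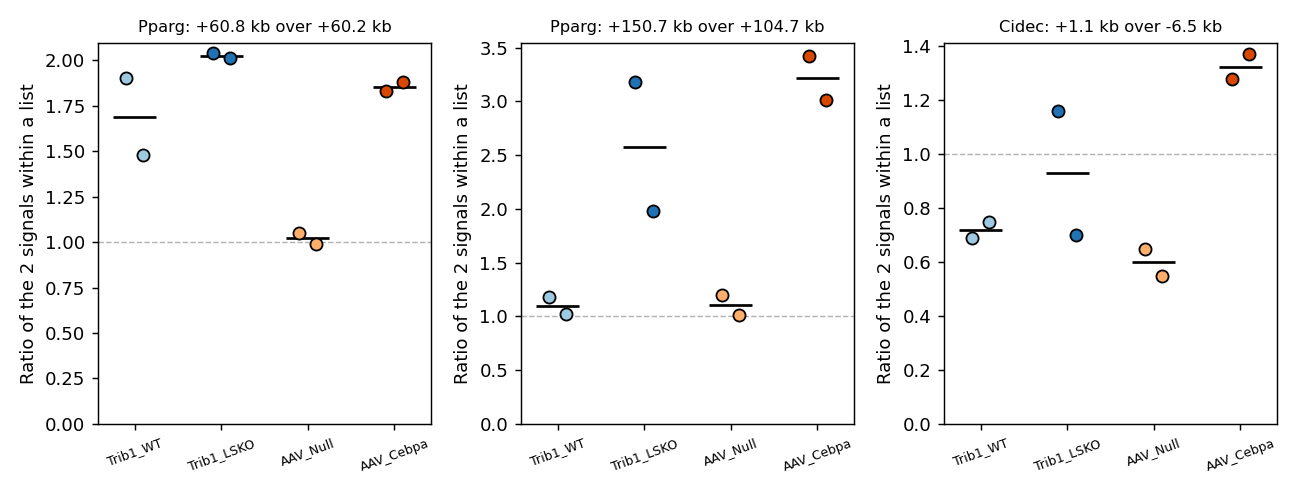
Ratio of the signals of 2 sites within each list (vertical axis, from 0) for 2 pairs of Pparg sites and 1 of Cidec; points are libraries, bars group means, the dashed line a ratio of 1. The ratio of the Pparg sites at 150.7 and 104.7 kb is 1.01 to 1.20 in the control lists and 1.98 to 3.42 in the treated lists. All pairs were chosen after the data were seen, so separated groups are no independent support.

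Binding at Cidec lay mainly at the same sites in all lists. The 5 sites called in all 8 lists formed a row over 14.3 kb that straddled the approximate gene start, 3 inside the gene at 1.1, 4.9 and 7.8 kb and 2 upstream at 2.8 and 6.5 kb. All were of middle to high strength, with percentiles of 55.0 to 87.0 over all lists. None reached the strongest 10% of a list, whereas the Pparg window had 4 or 5 peaks in that class in every list.

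**Figure D5:**
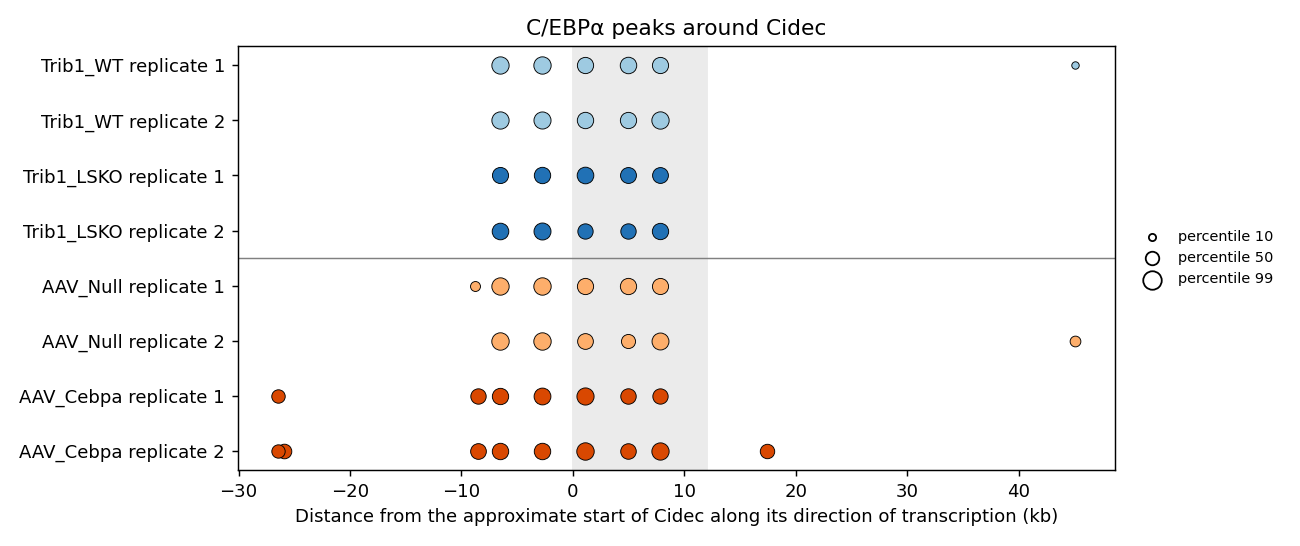
C/EBPα peaks in the Cidec window by list (rows) and distance in kb from the approximate gene start (horizontal axis, grey: approximate gene body), with point size giving the percentile within the list. The same 5 points from 6.5 kb upstream to 7.8 kb downstream stand in every row, and points at 8.5 and 26.5 kb upstream appear in the AAV_Cebpa rows.

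The upstream pair were the strongest Cidec sites by mean percentile. The site 2.8 kb upstream (chr6:113388671-113388903) had percentiles of 85.9 and 83.5 in Trib1_WT against 76.2 and 82.6 in Trib1_LSKO, and 86.5 and 86.6 in AAV_Null against 80.7 and 77.0 in AAV_Cebpa. The site 6.5 kb upstream (chr6:113392382-113392604) had 85.5 and 85.2, 73.7 and 78.6, 86.0 and 86.8, and 75.8 and 76.7 in that order. In both the control lists lay above the treated lists of their experiment. The third strongest was the site at 7.8 kb inside the gene (chr6:113378050-113378345), with 74.4 and 85.8 in Trib1_WT against 70.9 and 75.8 in Trib1_LSKO, and 73.6 and 82.0 in AAV_Null against 65.9 and 85.5 in AAV_Cebpa. Its replicates differed from each other by up to 19.6 points, more than its groups did.

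The upstream Cidec sites ranked lower in both perturbations, without overlap between groups. At 6.5 kb upstream the rank among constitutive sites was 70.1 and 68.9 in Trib1_WT and 52.6 and 58.0 in Trib1_LSKO, and 74.2 and 74.3 in AAV_Null and 53.9 and 46.9 in AAV_Cebpa. At 2.8 kb upstream it was 70.7 and 65.6 against 56.4 and 65.3 in the first experiment, a gap of 0.31 points between the nearest libraries. It was 75.1 and 73.9 against 61.4 and 47.4 in the second. These are 2 of 5 sites (40%) that ranked lower in both, against 18.3% of constitutive sites in the genome.

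None of the 3 sites inside Cidec ranked lower in both experiments by that rule. The one nearest the start, at 1.1 kb (chr6:113384812-113385047), ranked 55.4 and 46.8 in AAV_Null and 67.6 and 66.8 in AAV_Cebpa, and was the strongest site of the window in both AAV_Cebpa lists. In the first experiment it ranked 51.3 and 52.5 in Trib1_WT and 60.9 and 38.7 in Trib1_LSKO, with overlap. The site at 4.9 kb (chr6:113380968-113381191) ranked 55.2 and 51.0 in Trib1_WT and 49.3 and 39.7 in Trib1_LSKO, lower without overlap, and overlapped in the second experiment. The site at 7.8 kb overlapped in both. In all, 3 of 5 Cidec sites ranked lower and none higher in Trib1_LSKO (60% and 0, against 31.1% and 22.2% in the genome). In AAV_Cebpa 2 ranked lower and 1 higher (40% and 20%, against 41.1% and 30.9%). Higher sites numbered 1 in Trib1_LSKO without Trib1_LSKO replicate 2, and 2 in AAV_Cebpa without AAV_Null replicate 1.

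Read within a list, the signal at 1.1 kb was 0.69 and 0.75 times that at 6.5 kb upstream in Trib1_WT and 1.16 and 0.70 times in Trib1_LSKO, so these groups overlapped (exact permutation p = 0.667, n = 2 each). It was 0.65 and 0.55 times in AAV_Null and 1.28 and 1.37 times in AAV_Cebpa. In the second experiment the order of the sites was thus turned around, with the site beside the start above the upstream one in both AAV_Cebpa lists and below it in both AAV_Null lists (1.33 ± 0.06 against 0.60 ± 0.07, SD, exact permutation p = 0.33, n = 2 each). This ratio was added after the data were seen, and its sites ranked opposite ways in AAV_Cebpa. The separation of these groups is therefore no independent support.

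No Cidec site was gained or lost in Trib1_LSKO, where 3.15% and 3.23% of all sites were. The lists held 6 and 5 peaks in Trib1_WT and 5 and 5 in Trib1_LSKO (exact permutation p = 1.000, n = 2 each). A weak site 45.1 kb downstream of the start (chr6:113340804-113341003), at 11 in Trib1_WT replicate 1 and 29.4 in AAV_Null replicate 2, made the only difference in the first experiment, and without Trib1_WT replicate 2 it counted as 1 lost site.

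In AAV_Cebpa 2 of the 11 Cidec sites were gained (18.2%, against 19.5% of all sites) and none lost (5.33%). They lay upstream of the gene at 8.5 kb (chr6:113394389-113394595; 66.5 and 69.7) and 26.5 kb (chr6:113412381-113412612; 49.4 and 48.6), and neither was in any other list. The first had a peak of AAV_Null replicate 1 302 bp away (percentile 24.4), so that 1 site met the rule for a gain when absence was required over 500 bp. Peaks numbered 6 and 6 in AAV_Null and 7 and 9 in AAV_Cebpa (8.0 ± 1.4 against 6.0 ± 0.0, SD, n = 2 each; exact permutation p = 0.33), a ratio of 1.33 against 1.47 for the whole lists. Per 10000 peaks there were 1.15 ± 0.04 in AAV_Cebpa and 1.26 ± 0.05 in AAV_Null. The difference of 2.0 peaks was 3.0 without AAV_Cebpa replicate 1 and 1.0 without AAV_Cebpa replicate 2, and 4 sites were gained without AAV_Cebpa replicate 1. In the gene body itself every list held a peak at the same 3 sites and no other.

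The remaining sites of both windows were thinly called. Of the 57 sites, 14 were in 1 list alone (24.6%, against 27.1% of all sites). AAV_Cebpa replicate 2, the deepest library by the estimated depth, held 8 of these. Among them, sites at 43.6 kb in Pparg and 25.9 kb upstream of Cidec each had a percentile of 59.5 there. A Pparg site at 109.4 kb was called in Trib1_LSKO replicate 2 (37.5) and AAV_Null replicate 2 (62.7) but in neither of their replicates.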

How the data were processed

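C/EBPα ChIP-seq peak lists of 8 mouse liver libraries were analysed. The authors deposited 1 list per library, with a position and 1 signal value per peak, every peak 200 bp wide; how it was scaled is not given in the sources used here. Bowtie, HOMER and build mm9 are named per the submitters' processing notes, without versions; for input libraries, thresholds and duplicate handling the sources used here give nothing. Peaks were joined into sites where 200 bp windows around their midpoints shared 1 bp or more (Python 3.11.15, NumPy 2.4.6, SciPy 1.17.1). A percentile is the mean rank within a list. Relative depth was estimated as the inverse of the step of which signal values are whole multiples (tolerance 0.051). Intervals on depth need read totals, which were not used here. Numbers of peaks were compared by exact two-sided permutation. Site calls were made by presence, tested on simulated data with well separated sites. That simulation held no close neighbours and no differences in depth, so it checked the code and not the calls under those conditions. Named are all gained, lost and constitutive sites and the 3 strongest of each window; other sites named were chosen after their values were seen. The ranking among constitutive sites, the signal ratios and the 500 bp rule were also added after the data were seen. Members and lists were chosen with earlier results of these data known. Alternatives were other site windows (100 and 400 bp), the strongest 50%, lists of equal length (46348 peaks), a common signal minimum (6.1), the gene body alone, leaving out each library and a replicate block.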

Additional observations from a re-analysis of the deposited data

Results flagged for a closer look

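A pair of weak constitutive Pparg sites ranked opposite ways in the 2 experiments, in every library. At 9.5 kb upstream of the gene the mean rank among constitutive sites was 10.6 in Trib1_WT and 20.3 in Trib1_LSKO, a difference of 9.7, and 30.9 in AAV_Null and 12 in AAV_Cebpa, a difference of -18.8. The effects differed by 28.6 points. At 110.8 kb, inside the gene, the means were 10.1 and 26.4 in the first experiment and 27.5 and 17.7 in the second, and the effects differed by 26.1 points. Such opposite ranks occurred at 6.91% of the 24318 constitutive sites of the genome, and the differences between the experiments were not tested.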

How the results depend on the processing

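For 20 results, 172 values were recomputed under alternatives. Of these, 140 were counted as the same (the same direction, or a count within 1.5 times) and 32 moved. A reversal could be scored only for the differences in peak number, where none occurred. Some of the values counted as the same could not have differed, as described below for the replicate block. Counts of a few sites move by 1.5 times with 1 site. The difference in Cidec peaks between Trib1_LSKO and Trib1_WT of -0.5 was 0.0 with the strongest 50%, with lists of equal length and in the gene body alone, and -1.0 to 0.0 with a library left out. That between AAV_Cebpa and AAV_Null was 0.0 in the Cidec gene body. Pparg sites gained in AAV_Cebpa numbered 4 in the gene body alone. Pparg sites lost there numbered 0 with 400 bp windows, in the gene body and with the 500 bp rule, and 1 with the strongest 50%. Cidec sites gained there numbered 1 with 400 bp windows, the strongest 50% and the 500 bp rule, and 0 in the gene body. With a library left out, Pparg sites gained and lost numbered 2 to 4 and 0 to 1 in Trib1_LSKO and 8 to 14 and 2 to 4 in AAV_Cebpa. Cidec sites lost numbered 0 to 1 in both experiments, and those gained in AAV_Cebpa 2 to 4. Constitutive Pparg sites ranked lower in Trib1_LSKO numbered 1 to 3, and Cidec sites ranked higher 0 to 1 in Trib1_LSKO and 1 to 2 in AAV_Cebpa. The labels give replicate numbers but no pairing, and the deviations of same-numbered libraries correlated at 0.032 and -0.018 over sites. With the replicate block the differences in peak number were 5.0, 9.0, -0.5 and 2.0, which equal those without it by construction. The exact permutation p was then 0.5 at best. Calls of gained and lost sites are also unchanged under the block by definition, so neither agreement shows robustness. Counts of ranked sites could only stay or rise under the block, because groups without overlap already order each same-numbered pair. In Trib1_LSKO, 9 instead of 8 Pparg sites ranked higher and 2 instead of 1 ranked lower. Cidec sites ranked lower numbered 4 instead of 3 in Trib1_LSKO and 3 instead of 2 in AAV_Cebpa. The other ranked counts stayed the same. The cause of the shifts under the alternatives was not tested, apart from the looser rules when a library is left out or the block is used. Depth limits what can be said of weak sites: the weakest peak listed held 7 to 12 steps of signal, and absence from a list does not show absence of binding.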
